A study of Mus musculus with 7 samples.

Results

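The Egr transcription factor genes Egr1, Egr2, Egr3 and Egr4 and the genes of their corepressors, Nab1 and Nab2, were examined in RNA bound to tagged ribosomes of mouse medial prefrontal cortex (mPFC). These 6 genes were taken by exact symbol, and all 6 were among the 22180 genes measured. Values came from 7 one-colour Affymetrix arrays, 4 labelled cocaine-activated (numbered 4, 5, 6 and 7 in the labels) and 3 labelled shock-activated (numbered 4, 5 and 6). All mice carried a Cre-dependent GFP tag on ribosomes and an ArcCre transgene, so that tamoxifen given around cocaine (15 mg/kg on 2 days) or shock (20 shocks of 2 s at 0.5 mA on 2 days) tagged the cells in which the promoter of Arc was active. Ribosomes were pulled down with an anti-GFP antibody. The sources used here give neither the strain and age of the mice nor the time from labelling to collection. Since the labels do not tie the arrays to separate mice or pools, the p-values cover only the spread from array to array, part of which may be technical. The comparison of cocaine with shock asks how the transcripts on ribosomes differ between mPFC cells active in a rewarding and in an aversive experience.

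The Egr proteins are zinc finger transcription factors that bind GC-rich DNA. Their genes are immediate early genes: in neurons, calcium entry and the ERK kinase pathway act through serum response factor, its ELK partners and CREB to switch them on without new protein synthesis, and the messages decay soon afterwards. Nab1 and Nab2 bind a short inhibitory region that Egr1, Egr2 and Egr3 share and recruit the nucleosome remodelling factor CHD4, which dampens transcription of Egr targets. Nab2 is itself an activity-induced gene and an Egr target, which makes it part of a negative feedback loop, whereas Nab1 is regarded as the more constant of the pair.

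The RefSeq promoter table of mouse build GRCm38.p6 held 4 of the 6 members, namely Egr2, Egr4, Nab1 and Nab2. The 250 bases before a transcription start are shown for each, 5′ to 3′ on the strand of the gene. Capitals mark matches, on either strand, to the CArG box bound by serum response factor, to TGACG, the core of the CREB site, and to GCGNGGGCG, a site of the Egr proteins. None of the marked matches overlap. Egr2 has 5 listed starts, and the one farthest downstream is shown (chr10:67537680-67537929, plus strand). The others lie at chr6:85513590-85513839 for Egr4, chr1:52500449-52500698 for Nab1 and chr10:127666704-127666953 for Nab2, all on the minus strand.
Egr2: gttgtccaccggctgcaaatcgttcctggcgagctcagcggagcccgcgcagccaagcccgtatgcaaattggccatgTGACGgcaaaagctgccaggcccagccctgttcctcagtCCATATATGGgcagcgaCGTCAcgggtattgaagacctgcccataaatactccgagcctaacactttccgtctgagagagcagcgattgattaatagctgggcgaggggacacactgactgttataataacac
Egr4: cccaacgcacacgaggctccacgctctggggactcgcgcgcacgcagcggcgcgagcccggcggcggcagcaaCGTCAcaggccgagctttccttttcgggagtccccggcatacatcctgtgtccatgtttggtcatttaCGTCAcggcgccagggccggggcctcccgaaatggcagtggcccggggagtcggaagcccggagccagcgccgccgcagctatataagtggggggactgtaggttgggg
Nab1: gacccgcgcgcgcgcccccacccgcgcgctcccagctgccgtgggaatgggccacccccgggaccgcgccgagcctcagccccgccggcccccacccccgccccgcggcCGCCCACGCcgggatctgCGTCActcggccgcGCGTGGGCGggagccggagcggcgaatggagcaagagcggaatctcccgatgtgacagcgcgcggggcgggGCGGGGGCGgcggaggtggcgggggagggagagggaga
Nab2: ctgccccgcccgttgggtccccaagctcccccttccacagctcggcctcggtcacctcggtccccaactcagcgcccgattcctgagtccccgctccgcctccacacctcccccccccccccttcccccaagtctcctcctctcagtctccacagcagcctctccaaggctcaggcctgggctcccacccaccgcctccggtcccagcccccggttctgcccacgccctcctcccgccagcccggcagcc

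The Egr2 window shown held 1 CArG box, ending 123 bases before the start, and 2 TGACG matches on either side of it, ending 167 and 111 bases before the start. The Egr2 windows at chr10:67537619-67537868 and chr10:67537620-67537869 also held 1 CArG box and 2 TGACG matches. Other Egr2 windows differed. The window at chr10:67535249-67535498 held none of the 3 motifs, and that at chr10:67537316-67537565 held 1 CArG box and no TGACG. Egr4 also held 2 TGACG matches, ending 172 and 104 bases before its start. The Nab1 window, at 80.8% G and C, held 3 matches to GCGNGGGCG and 1 to TGACG, and the Nab2 window held none of the 3 motifs. Among all 32851 windows of this length, 1.47% held a CArG box, 17.77% TGACG and 4.7% GCGNGGGCG. These matches describe the letters and are not measured binding sites. Their relation to the array values was not tested.

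Over the series, the deposited log2 values had medians of 5.44 to 5.47 on the 7 arrays. A background level of 5.44 was taken from 1373 olfactory and vomeronasal receptor genes, as the value that 95% of their means stay under, and all 6 members lay above it on every array. The 5 measured excitatory cortical neuron markers were above it as well. Cocaine array 6 correlated least with the other arrays (mean r = 0.993 over all genes, against 0.995 to 0.996 for each of the others). Arrays have no read depth, and their number limits the precision. A lower value in such precipitates can come from fewer tagged cells of a type or from less ribosome-bound RNA per cell, which cannot be told apart.

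Each of the 4 Egr genes had a higher mean in the cocaine group, by 0.092 to 0.54 on the log2 scale, while Nab1 and Nab2 had nearly the same mean in both groups. A higher cocaine mean was found for 50.9% of all genes. For no member did the groups differ by more than the spread from array to array: shock array 5 had Egr values among those of the cocaine arrays.

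Egr1, also known as Zif268 and tied to the upkeep of synaptic potentiation and memory, had log2 values of 9.60, 9.94, 9.37 and 9.57 on cocaine arrays 4, 5, 6 and 7 and of 8.80, 9.82 and 9.08 on shock arrays 4, 5 and 6 (probe set 17349514, Entrez 13653). Shock arrays 4 and 6 were below every cocaine array, and shock array 5 was above 3 of the 4. The means were 9.62 ± 0.24 (SD, n = 4) and 9.23 ± 0.53 (SD, n = 3), a difference of 0.39 (SE 0.25, 95% interval -0.21 to 0.98, exact two-sided permutation p = 0.229).

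Egr2, the factor that drives myelination in Schwann cells and is induced by activity in cortical neurons, had values of 8.08, 8.57, 7.31 and 8.11 on the cocaine arrays and 6.98, 8.31 and 7.26 on the shock arrays, in the same array order (probe set 17233993, Entrez 13654). Here cocaine array 6 lay close to shock arrays 4 and 6, and the remaining cocaine arrays were near shock array 5. The difference was 0.50 (SE 0.40, 95% interval -0.44 to 1.44, exact two-sided permutation p = 0.286), with means of 8.02 ± 0.52 (SD, n = 4) and 7.52 ± 0.70 (SD, n = 3).

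Egr3, required for muscle spindles and induced by activity in the brain, varied over a range of 0.36. Its values were 9.60, 9.76, 9.51 and 9.63 on the cocaine arrays and 9.40, 9.69 and 9.50 on the shock arrays (probe set 17301718, Entrez 13655). The order of the arrays was that of Egr2, whose annotation overlaps the predicted gene Gm32255 in the reference. The difference was 0.092 (SE 0.085, 95% interval -0.11 to 0.29, exact two-sided permutation p = 0.343), with means of 9.62 ± 0.10 (SD, n = 4) and 9.53 ± 0.15 (SD, n = 3).

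Egr4, a family member without the Nab-binding region, had values of 8.25, 8.36, 7.75 and 7.94 on the cocaine arrays and 7.07, 8.15 and 7.39 on the shock arrays (probe set 17468405, Entrez 13656). Cocaine arrays 4 and 5 were above every shock array. The difference of 0.54 (SE 0.27, 95% interval -0.11 to 1.19) was the largest of the 6 in size and had an exact two-sided permutation p = 0.143. Differences above 0.5 in favour of cocaine were found for 38 genes, 0.171% of all genes. Of the members only Egr4 was among them, with Egr2 just under that cut at 0.499. The means were 8.08 ± 0.28 (SD, n = 4) and 7.54 ± 0.56 (SD, n = 3).

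**Figure D1:**
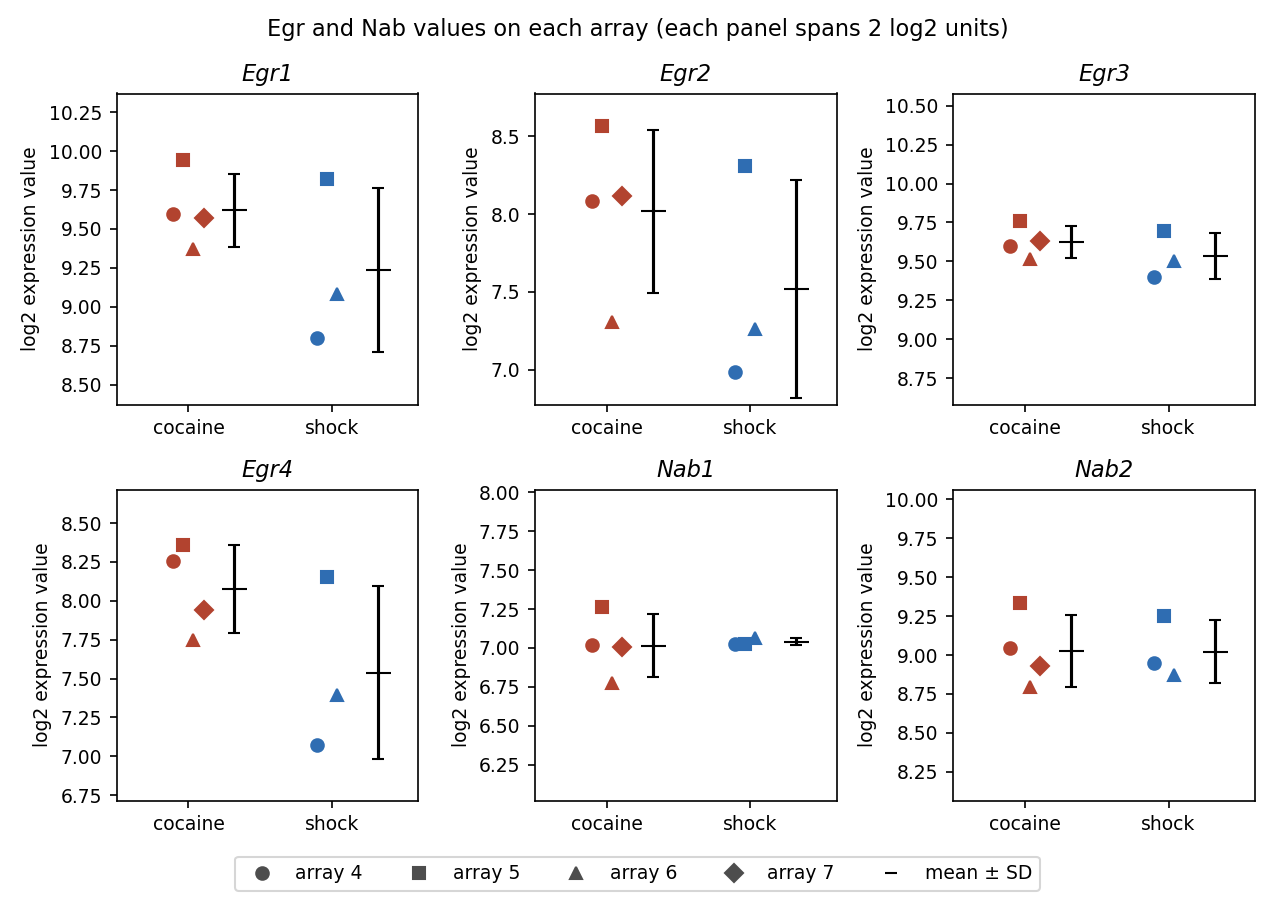
Log2 expression values of the 6 genes on each array (points, with the marker giving the array number) with the mean ± SD of 4 cocaine and 3 shock arrays; each panel spans the same height. In the Egr panels shock arrays 4 and 6 are low and shock array 5 lies among the cocaine arrays. In the Nab panels shock arrays 4 and 6 are not below all the cocaine arrays, though for Nab2 shock array 5 is again the highest of the shock arrays.

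Of the corepressors, Nab1 had values of 7.02, 7.26, 6.77 and 7.01 on the cocaine arrays and 7.03, 7.03 and 7.07 on the shock arrays (probe set 17222913, Entrez 17936). The cocaine arrays lay on both sides of the shock arrays. Shock arrays 4 and 5 held the identical deposited value, and 55.9% of all probe sets had such a tie on 2 or more arrays. The difference was -0.024 (SE 0.11, 95% interval -0.28 to 0.23, exact two-sided permutation p = 0.6).

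Nab2 had values of 9.04, 9.34, 8.79 and 8.93 on the cocaine arrays and 8.95, 9.25 and 8.87 on the shock arrays (probe set 17246019, Entrez 17937). The shock arrays lay within the range of the cocaine arrays, with a difference of 0.0024 (SE 0.15, 95% interval -0.35 to 0.35, exact two-sided permutation p = 0.971). Nab2 was the only member with 2 probe sets, and its dimmer probe set (17238088) differed by 0.062 (exact two-sided permutation p = 0.714). In the reference annotation Nab2 overlaps Stat6, whose own probe set held 1 value on 6 of the 7 arrays (6.15, against 6.24 on cocaine array 6). With its values tied in this way, it cannot show whether Stat6 shared the Nab2 pattern.

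By limma with Benjamini-Hochberg adjustment over all genes, 0 of the 6 members and 0 of the 22180 genes (0%) passed an adjusted p of 0.05. The adjusted p was 0.938 for each of Egr1, Egr2, Egr3 and Egr4, 0.982 for Nab1 and 1.0 for Nab2. Without adjustment 688 genes (3.1%) had a limma p under 0.05, and none of the members did: limma gave 0.170 for Egr1, 0.249 for Egr2, 0.313 for Egr3, 0.0914 for Egr4, 0.830 for Nab1 and 0.9875 for Nab2. The groups did not overlap for 525 genes (2.37%), again with no member among them. The intervals leave room for signal differences as large as 0.98 to 1.44 in Egr1, Egr2 and Egr4. For the probe sets of Egr3, Nab1 and Nab2 they reach at most 0.35 in size. They describe probe set signal and do not bound the difference in the transcripts.

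**Figure D2:**
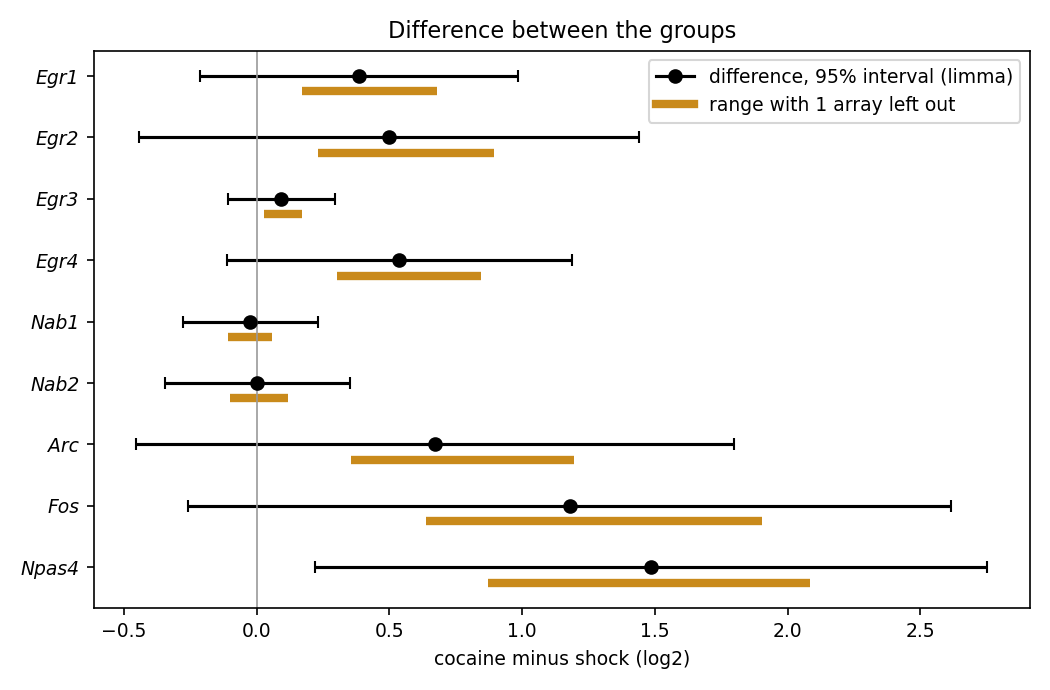
Cocaine minus shock difference on the log2 scale for the 6 genes and for Arc, Fos and Npas4 (points, with 95% intervals from limma) and the range of the difference when 1 of the 7 arrays is left out (bars). The intervals of all 6 genes include 0, and the Egr ranges stay above 0 while the Nab ranges span it.

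The size of the Egr differences depended on which shock arrays were included. Without shock array 5, the differences were 0.68 for Egr1, 0.90 for Egr2, 0.17 for Egr3 and 0.84 for Egr4. Leaving out shock array 4 instead gave 0.17, 0.23, 0.027 and 0.30 in the same order. No adjusted p passed 0.05 in either case. Without shock array 5 the unadjusted limma p was under 0.05 for Egr1, Egr2 and Egr4 (0.00838, 0.0428 and 0.00663). In that fit 788 of the 22180 genes were under 0.05. Shock array 5 is the shock array whose Egr values lay among those of the cocaine arrays, and these genes moved together over the arrays.

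Arrays of the same number in the labels also deviated together over genes above the background level, so the differences between them were listed. The link was weakest for number 5 (r = 0.146), where shock array 5 had a higher r with cocaine array 7 (0.201). Between cocaine and shock array 4, Egr1 differed by 0.79, Egr2 by 1.10, Egr3 by 0.20 and Egr4 by 1.18. Between the arrays numbered 5 the differences were 0.12, 0.26, 0.064 and 0.21, and between those numbered 6 they were 0.29, 0.045, 0.0097 and 0.36. The cocaine array was thus the higher in all 3 pairs for each Egr gene, by amounts that varied widely between pairs. Some were very small, as for Egr2 (0.045) and Egr3 (0.0097) between the arrays numbered 6. The share of all genes higher in all 3 pairs was not counted. Since the Egr genes moved together over the arrays, they are not separate observations. Nab1 differed by -0.0068, 0.24 and -0.29 and Nab2 by 0.096, 0.085 and -0.080, with no common sign.

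The Egr genes were high and low on the same arrays. Cocaine array 5 was highest for all 6 members. Shock array 4 was the lowest for each Egr gene, followed by shock array 6 and then cocaine array 6. For the 6 Egr pairs, Pearson's r over the 7 arrays was 0.915 to 0.976 (exact permutation p of 0.0002 to 0.0038, at most 0.0094 after adjustment over 15 pairs of members) and Spearman's rho was 0.893 to 1.0 (exact permutation p of 0.0004 to 0.0123, at most 0.0308 after adjustment). Without the 2 arrays farthest from the median, r was 0.781 to 0.980. Taken as deviations from the group means, which removes the difference between cocaine and shock, r was 0.920 to 0.972. The shared order was thus present within the groups as well as across them. These tests treat the 7 arrays as exchangeable and take no account of the array numbers.

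**Figure D3:**
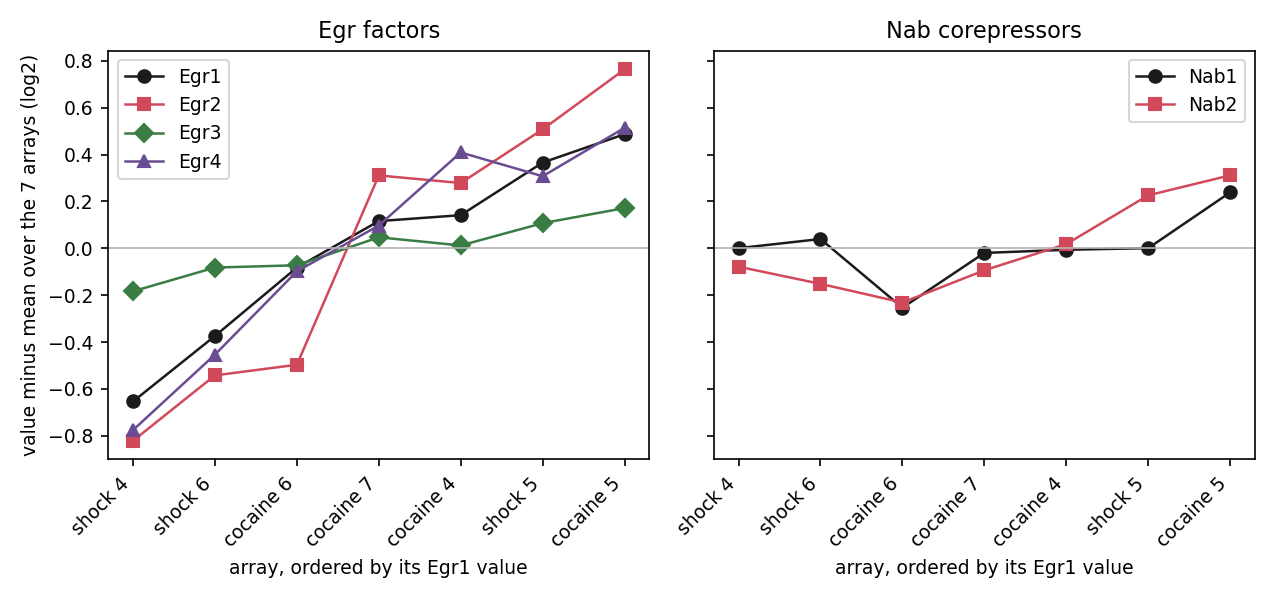
Value of each gene minus its mean over the 7 arrays (log2), with the arrays ordered by their Egr1 value; the left panel shows the Egr genes and the right panel the Nab genes. The Egr lines climb together from shock array 4 to cocaine array 5, apart from small dips at cocaine array 4 (Egr2, Egr3) and shock array 5 (Egr4), with Egr3 the flattest, while both Nab lines are lowest at cocaine array 6.

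For the Nab genes no pair with an Egr gene passed 0.05 after adjustment over the 15 pairs. Nab2 had r = 0.729 and rho = 0.75 with Egr1 (exact permutation p = 0.0649 and 0.0663, adjusted 0.0973 and 0.142) and r = 0.807 and rho = 0.679 with Egr2 (exact permutation p = 0.0308 and 0.1095, adjusted 0.0588 and 0.164). Nab1 had r = 0.342 and rho = 0.234 with Egr1 (exact permutation p = 0.446 and 0.620, adjusted 0.478 and 0.698). With the 2 arrays farthest from the Egr1 median left out, shock arrays 4 and 6, r with Egr1 was 0.989 for Nab2 and 0.914 for Nab1, over 5 arrays. Between Nab1 and Nab2, r was 0.749 and rho 0.577 (exact permutation p = 0.0365 and 0.187, adjusted 0.0608 and 0.255), and r was -0.301 without cocaine arrays 5 and 6, on which that relation rested.

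Differences between members within each array were also taken, a comparison chosen after the values had been seen. Only their change between arrays can be read, since levels of different probe sets are not comparable. On the 4 cocaine arrays Egr1 minus Nab2 was 0.55, 0.61, 0.58 and 0.64, a nearly constant offset (SD 0.037), and Egr1 minus Nab1 was similarly steady (SD 0.051). The other Egr genes were less steady against the corepressors there, with SDs from 0.10 (Egr3 minus Nab1) to 0.33 (Egr2 minus Nab2). On shock arrays 4, 5 and 6 Egr1 minus Nab2 was -0.15, 0.57 and 0.21 (SD 0.36), and Egr1 minus Nab1 was 1.77, 2.79 and 2.01 (SD 0.53), against 2.56 to 2.68 on the cocaine arrays. On shock arrays 4 and 6 Egr1 was thus low relative to both corepressors. On shock array 5 it lay within the cocaine values relative to Nab2 and above all of them relative to Nab1.

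For 2 of the 15 pairs the groups did not overlap. Over single genes of the series the groups did not overlap for 2.37%, and the share over pairs of other genes was not counted. The 15 pairs share their genes, so they are not separate observations. Egr4 minus Nab2 was -0.79, -0.98, -1.04 and -0.99 on the cocaine arrays and -1.88, -1.10 and -1.48 on the shock arrays, a shift of 0.54 toward Egr4 in the cocaine group. Its exact two-sided permutation p was 0.0286, the smallest that the 35 splits of 4 and 3 arrays can give, and 0.381 after adjustment over the 15 pairs. Leaving out shock array 4 gave a shift of 0.34, and leaving out shock array 5 gave 0.73. The other was Egr1 minus Egr4, at 1.34, 1.58, 1.62 and 1.63 on the cocaine arrays and 1.73, 1.67 and 1.69 on the shock arrays. It shifted by -0.15 (exact two-sided permutation p = 0.0857, adjusted 0.381), and by -0.084 without cocaine array 4. For the remaining 13 pairs the unadjusted exact permutation p was 0.0571 or more.

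Egr1, Egr2 and Egr4 varied more between arrays of a group than most genes. The SD within groups was 0.60 for Egr2, 0.41 for Egr4 and 0.38 for Egr1, against a median of 0.077 over genes above the background level, which placed them at the 99.9th, 99.7th and 99.6th percentiles of those genes. Egr3 lay at the 78.8th percentile with an SD of 0.12, Nab1 at the 89.3rd with 0.16 and Nab2 at the 96.8th with 0.22. Over the 7 arrays the highest and lowest values were 1.58 apart for Egr2, 1.29 for Egr4 and 1.14 for Egr1, but 0.36 apart for Egr3.

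**Figure D4:**
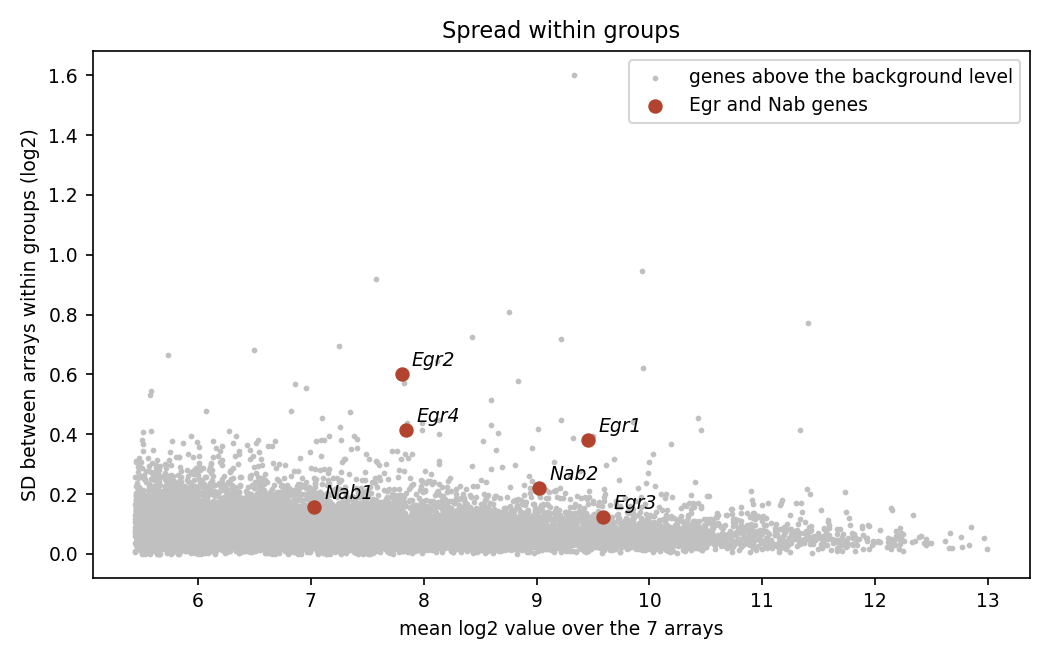
SD between arrays within groups (log2) against the mean log2 value over the 7 arrays for every gene above the background level (grey points) and for the 6 members (red points). Egr2, Egr4 and Egr1 stand at 0.38 to 0.60, while Egr3, Nab1 and Nab2 lie at 0.12 to 0.22.

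Genes with the most similar array pattern were sought by Pearson's r over the 7 arrays among genes above the background level with an SD of at least 0.2, which left 619 or 620 candidates per member. They are given as a description, since the arrays are few and shared. For Egr1 they were the predicted gene Gm13889 (r = 0.990) and the AP-1 genes Junb (0.984) and Fosb (0.980). For Egr2 they were Fosb (0.991), the orphan nuclear receptor gene Nr4a1 (0.978) and Junb (0.974). Egr3 was under the SD cut and so was no candidate, though its r with Egr2 (0.976) was above that of Junb. Egr3 had Fosb (0.984), Egr2 (0.976) and the salt-inducible kinase gene Sik1 (0.975), and Egr4 had the matricellular protein gene Ccn1 (0.977, another immediate early gene), Egr1 (0.971) and Junb (0.961).

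The corepressors had other neighbours. Nab2 was closest to the thyroid hormone deiodinase gene Dio2 (0.984), the kinase-like gene Stk40 (0.976) and Nr4a3 (0.971), an orphan receptor gene induced by activity. Nab1 was closest to the Polycomb gene Bmi1 (0.997), the zinc finger gene Zkscan3 (0.968) and Klf2 (0.963). Arc, whose promoter controlled the tagging, had r = 0.941 with Egr1, 0.969 with Egr2, 0.924 with Egr3, 0.928 with Egr4, 0.806 with Nab2 and 0.429 with Nab1. Fos had r = 0.892 with Egr1, and Npas4, a neuron-specific activity-induced factor, 0.731.

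The remaining immediate early genes gave the setting for the Egr values. All 19 measured of 20 listed had a higher mean in the cocaine group, against 50.9% of all genes, with a median difference of 0.18 against 0.0016 over all genes, and 0 passed the adjusted threshold (limma). The 4 of smallest p were Npas4 (difference 1.49), the antiproliferative gene Btg2 (1.01), Fos (1.18) and Jun (0.26), each at an adjusted p of 0.938 by limma. The difference of Npas4 had an exact two-sided permutation p = 0.0571. The list median was 0.067 without shock array 4, 0.40 without shock array 5 and 0.31 without cocaine array 6. On each array the list moved as the Egr genes did, with a mean deviation of -0.50 and -0.53 on shock arrays 4 and 6, 0.36 on shock array 5, -0.21 on cocaine array 6 and 0.17 to 0.43 on the other cocaine arrays.

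Upstream of Egr, 12 of 16 listed kinases and factors of the ERK, serum response factor and CREB routes were measured. Of these 5 had a higher and 7 a lower mean in the cocaine group, with a median difference of -0.018, and 0 passed. The 4 of smallest p were the ELK family gene Elk3 (-0.091, SE 0.055), the ERK kinase gene Map2k1 (0.076, SE 0.048), the Raf kinase gene Braf (-0.066, SE 0.050) and the histone and CREB kinase gene Rps6ka5 (0.064, SE 0.049).

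Downstream, 18 of 19 genes described elsewhere as Egr targets were measured, mostly from work in other cells. The cocaine mean was higher for 10 and lower for 8, the median difference was 0.0075, and 0 passed. Arc, which is also on the immediate early list, differed by 0.67 (SE 0.47), with means of 9.51 ± 0.55 (SD, n = 4) and 8.83 ± 0.91 (SD, n = 3). The others of smallest p were the adhesion gene Icam1 (-0.17, SE 0.099), the acetylcholinesterase gene Ache (0.076, SE 0.045) and Cdk5r1 (0.068, SE 0.043), which encodes the p35 activator of CDK5. Apart from Arc, no listed target had a difference above the Egr1 value of 0.39 in size. The targets of Egr2 known from Schwann cells split evenly, with 4 of 8 measured genes higher and a median difference of -0.00058. Among them Pmp22 (a myelin protein gene) differed by -0.15, Drp2 by 0.077, Pou3f1 by -0.074 and Mbp by 0.057, and 0 passed.

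All 15 listed genes of CHD4, of other subunits of its NuRD complex and of further partners of the Egr and Nab proteins were measured. The cocaine mean was higher for 5 and lower for 10, with a median difference of -0.021, and 0 passed. Hdac1, which encodes a deacetylase subunit, had a difference of -0.27 (SE 0.076) with means of 7.71 ± 0.11 (SD, n = 4) and 7.98 ± 0.11 (SD, n = 3). Its groups did not overlap, as was found for 2.37% of all genes. Its adjusted p by limma was 0.938. The difference ranged from -0.33 to -0.22 when 1 array was left out. Hdac2, the gene of the other deacetylase subunit, differed by 0.058 and is named because Hdac1 is, after its value was seen. The next by p were Rbbp4 (-0.085), Mta1 (-0.043) and Mbd3 (0.033). Zinc finger factors that bind related GC-rich boxes differed little, with 7 of 9 measured genes higher, a median of 0.014 and 0 passing, and with Klf9 at 0.050, Klf13 at 0.033, Klf16 at 0.032 and Maz at 0.0091.

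**Figure D5:**
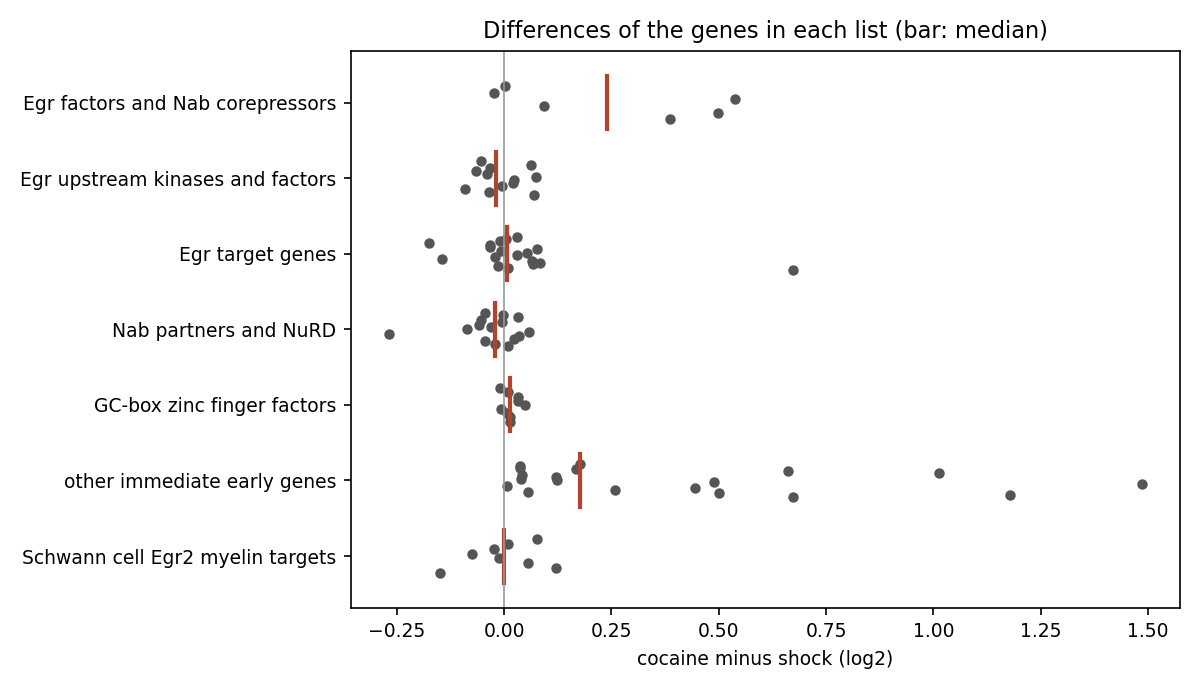
Cocaine minus shock differences (log2) of the single genes (points) and the median (bar) of the 6 members and of 6 lists of related genes. Arc stands out among the targets at 0.67 and Hdac1 among the Nab partners at -0.27; the medians of the lists other than the immediate early genes lie between -0.021 and 0.014.

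Markers of other cell types also varied over the arrays. All 9 vascular markers had a lower cocaine mean, with list scores (the mean deviation of the genes from their 7-array means) of -0.34 to 0.015 on the cocaine arrays and 0.035 to 0.30 on the shock arrays. Shock arrays 6 and 4, with the lowest Egr1 values, had the highest vascular scores (0.30 and 0.17). The other arrays did not follow that order: shock array 5 and cocaine array 5, with the highest Egr1 values, had the next highest scores (0.035 and 0.015), and cocaine array 7 had the lowest. All 6 astrocyte markers were lower as well (scores -0.21 to 0.11 and -0.062 to 0.16), as were 5 of 7 inhibitory neuron markers (-0.084 to 0.027 and -0.016 to 0.16) and 4 of 7 microglia markers (-0.039 to -0.0044 and 0.0018 to 0.061). All 6 measured striatal markers had a higher cocaine mean (0.014 to 0.18 and -0.16 to -0.051).

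Excitatory neuron and oligodendrocyte lineage markers were higher for 3 of 5 and 3 of 6 genes (scores -0.014 to 0.049 and -0.068 to 0.034, then -0.12 to 0.12 and -0.061 to 0.047). Among all these markers Pvalb alone was under the background level. Without shock array 6, where the vascular score was highest, Egr1 differed by 0.31, Egr2 by 0.37, Egr3 by 0.078 and Egr4 by 0.46. The part of these cell types in the Egr values was not tested.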

How the data were processed

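The deposited log2 values of 41345 probe sets on 7 arrays were used. The log2 scale was read from the values (1.12 to 13.44), and Transcriptome Analysis Console is listed in the submitters' processing notes. The sources used here do not give the summarization, background correction, normalization or array build. Names came from the platform annotation (23521 had 1 symbol, 1814 several, 16010 none listed), and for each gene the one with the highest mean was kept. Differences are cocaine minus shock, tested with limma 3.58.1 in R 4.3.3 (two-sided, all 7 arrays, no covariate, Benjamini-Hochberg over 22180 genes). Exact permutation tests used the 35 splits, counting splits with a difference at least as large in size, and correlations used all 5040 pairings. The fit was tested on simulated data.

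Same-numbered arrays shared deviations from their group means (r = 0.268, 0.146 and 0.313 for numbers 4, 5 and 6, over genes above background). Of the unlike-numbered pairs, cocaine array 7 with shock array 5 had r = 0.201 and the rest 0.033 or less. The number was therefore taken as a possible pairing, a hint from the data and the titles. It was used to list differences between same-numbered arrays and as a block in an alternative fit. The main limma and exact permutation tests did not use it. Cocaine array 7 has no partner.

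The members, lists and comparisons were chosen with earlier results of these data known. Named genes were the members, Arc, Fos, Npas4, up to 4 genes of smallest p per list and the 3 most similar genes per member. For marker lists only counts and scores are given. Motifs were searched in RefSeq windows.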

Additional observations from a re-analysis of the deposited data

How the results depend on the processing

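Each array was left out in turn, the values were quantile normalized or centred on the array median, dim genes were dropped, probe sets of a gene were averaged, and limma was run with trend and robust moderation, with array weights or with the title number as a replicate block. Under these 14 alternatives no gene passed an adjusted p of 0.05 (limma), and Egr1, Egr2, Egr3 and Egr4 kept a higher cocaine mean. Leaving out 1 array gave 0.17 to 0.68 for Egr1, 0.23 to 0.90 for Egr2, 0.027 to 0.17 for Egr3 and 0.30 to 0.84 for Egr4. The sign of both Nab genes turned: Nab1 ran from -0.11 to 0.057 with 1 array left out and was 0.026 with array weights, and Nab2 ran from -0.10 to 0.12. With the replicate block the differences were 0.40, 0.47, 0.090 and 0.58 for Egr1 to Egr4, -0.021 for Nab1 and 0.034 for Nab2. The unadjusted limma p with the block was 0.0651, 0.132, 0.179 and 0.0692 for Egr1 to Egr4, 0.872 for Nab1 and 0.574 for Nab2. In that fit 915 genes had an unadjusted p under 0.05, and the block changed no call. That count was 453 with dim genes left out, where 13823 genes were tested, and 531 to 788 with 1 array left out. The median of the upstream list ran from -0.027 to 0.011 with 1 array left out and was 0.0017 after median centring. Without the 2 farthest arrays, r was 0.914 for Egr1 with Nab1, 0.989 for Egr1 with Nab2, 0.948 for Egr2 with Nab1, 0.392 for Egr3 with Nab1 (0.526 over all arrays), 0.892 for Egr4 with Nab1, 0.880 for Egr4 with Nab2 and -0.301 for Nab1 with Nab2. The cause of these shifts was not tested. With 3 shock arrays the exact test cannot go below 0.0286.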
